A study of Mus musculus with 8 samples.

Results

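The 76 mitochondrial ribosomal protein genes are those of the 11364 genes whose symbol in the KLF1-ER RNA table is Mrpl or Mrps followed by a digit, with 47 named for the large subunit and 29 for the small subunit. Of the 5551 sites in the table of KLF1 binding, 6 had one of these genes as the closest transcription start site (TSS). The question was how these genes stood in newly made RNA of erythroid cells and where wild type and mutant KLF1 occupied DNA near them. K1 is an immortalised erythroid line from Klf1-/- fetal liver, so every group lacked endogenous KLF1. K1-CDA-ER cells (here K1-E339K-ER) carried in addition a retroviral transgene for KLF1-E339K fused to the estrogen receptor, the mouse counterpart of the human KLF1 mutation of congenital dyserythropoietic anemia (CDA) type IV. Cells that took up the virus were sorted for GFP, and the fusion moves to the nucleus on 4-OHT.

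The labels give 3 libraries of 4sU-labeled RNA from K1 cells and 3 from K1-CDA-ER cells (clones 1B, 2A and 2B). The label of 1 K1 library says ethanol, and the other 5 say tamoxifen (200 nM). Uridine analogue was present at 500 uM for 30 min according to the labels, while the Methods give another dose and time. The labels also give 1 ChIP and 1 input library, both from clone 2A after 3 h of induction, and the Methods say that samples were pooled before sequencing. The wild type values come from K1-ER cells, which carry wild type KLF1-ER in the same vector, and whose libraries belong to other work. The expression levels are the authors' means over all libraries of their fit. The same means stand in the tables of both comparisons, so the K1-ER libraries appear to be part of them beside the 6 libraries above. No column holds a value per library, and the authors' own comparison columns were not used, so no value below has an SD, no test between samples was run, and every comparison is a description. The depth of each library is unknown for the same reason. Of 12 erythroid genes, all 12 were listed, from Gata1 at a mean of 9.79 and Tal1 at 9.48 (log2 CPM) to Hbb-b1 at 3.87 and Hba-a1 at 3.79. These globin genes lay below the median of 5.27 over all 11364 genes. Klf1 is 1 of the 12, at 6.84, although the cells are Klf1-/-, and the source of its reads was not tested. None of the 8 T cell, B cell and hepatocyte genes was listed, and of 3 myeloid genes only Mpo was, at 1.84.

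Mitochondria keep their own ribosome, which makes a small set of membrane subunits of the respiratory chain from mitochondrial mRNA. Its RNAs come from the mitochondrial genome, but all of its proteins are encoded in the nucleus, translated in the cytosol and imported. In erythroid cells, mitochondria also carry out the first and the last steps of heme synthesis. KLF1 is the erythroid factor that binds CACCC boxes, which read as G-rich letters on the other strand.

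For some of the binding sites near these genes, all chosen among those with a motif match, sequences are shown so that the letters can be read beside the occupancy. The sites nearest to an annotated start, that of Rab6a near Mrpl48 (42.5 bp) and that of Mrpl17 (48 bp), held neither motif and are not shown. Also not shown are the Lzts2 site near Mrpl43 and the Gemin5 site near Mrpl22. Both were higher for the mutant and held a pyrimidine but no purine match. All are from mm9, plus strand, 5′ to 3′. Capitals mark matches to a G-rich KLF1 motif, searched on both strands. The pyrimidine motif was NGGGCGGGG, NGGGCGTGG, NGGGTGGGG or NGGGTGTGG, the form that the paper gives for wild type KLF1. With T as the fifth letter it reads CACCC on the other strand. With C, as at Mrps18b and Mrpl22, it reads CGCCC there. The purine motif was NGGGAGGGG, NGGGAGTGG, NGGGGGGGG or NGGGGGTGG, which differs from the pyrimidine motif only in the fifth letter. A match to the minus strand reads as its reverse complement. The capitals at Mrpl22 thus hold 4 copies of TGGGCGTGG on the minus strand, in adjoining pairs. At Mrps18b the stretch between the starts of Mrps18b and Ppp1r10 is shown, with 10 bases past each start, and capitals there also mark CCGGAAG and GCATGCGC, the core letters bound by ETS factors and by NRF1.
Mrps18b (chr17:36053324-36053521): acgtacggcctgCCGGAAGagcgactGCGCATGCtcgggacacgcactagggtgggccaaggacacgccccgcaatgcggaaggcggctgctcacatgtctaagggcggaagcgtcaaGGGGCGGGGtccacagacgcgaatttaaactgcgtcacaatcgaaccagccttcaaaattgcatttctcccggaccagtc
Mrpl22 (chr11:57987157-57987307): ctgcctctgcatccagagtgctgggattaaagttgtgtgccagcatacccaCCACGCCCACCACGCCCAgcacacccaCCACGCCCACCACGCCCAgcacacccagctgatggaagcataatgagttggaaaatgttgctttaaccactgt
Mrps28 (chr3:8923372-8923522): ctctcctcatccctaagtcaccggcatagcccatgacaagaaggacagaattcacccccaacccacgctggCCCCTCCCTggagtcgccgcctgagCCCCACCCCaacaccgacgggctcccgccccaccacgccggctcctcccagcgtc
Mrpl38 (chr11:116003992-116004020): tcctacagctCCCCACCCCacctctggag
Slc7a7, upstream of Mrpl52 (chr14:55036633-55036783): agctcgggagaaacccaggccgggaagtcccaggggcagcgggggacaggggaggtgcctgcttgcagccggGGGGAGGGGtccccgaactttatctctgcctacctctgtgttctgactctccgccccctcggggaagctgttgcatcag
Tmem63b, upstream of Mrpl14 (chr17:45822946-45822974): aggaggtggaAGGGAGGGGacgcgcagct

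The mitochondrial ribosomal protein genes were listed at a middle level, and their place among all genes depended on how gene length was treated. Over the 76 genes, the authors' mean expression ran from 2.10 to 7.48 with a median of 4.88 (log2 CPM), beside a median of 5.27 over all 11364 genes, and 27 of the 76 (35.5%) lay above that overall median. They are short genes, with a median deposited length of 7224 bp beside 20990 bp over all genes. Whether length set their place among all genes was not tested. Per kb of gene length, the median level of the 76 was 1.91 beside 0.82 over all genes (log2 CPM per kb), and 64 of 76 (84.2%) lay above the overall median. Per kb of annotated exon length the medians were 4.02 and 3.51, and 50 of 76 (65.8%) lay above. The 2 lengths come from different annotations, and the deposited length was within 100 bp of the annotated span for only 45 of 76 genes. For some genes, such as Mrps26 (4358 against 1638 bp), the exon length even exceeded the deposited gene length. The sources used here do not state whether reads in introns were counted, so neither length is known to be the right one. The 89 genes whose symbols begin with Rpl or Rps and a digit, most of which encode the cytosolic ribosome, had a median of 5.10 per kb of gene length. Of these, 81 of 89 (91.0%) lay above the overall median. Called cytosolic ribosomal genes below, they also include kinase genes such as Rps6ka1 and Rps6ka5.

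**Figure D1:**
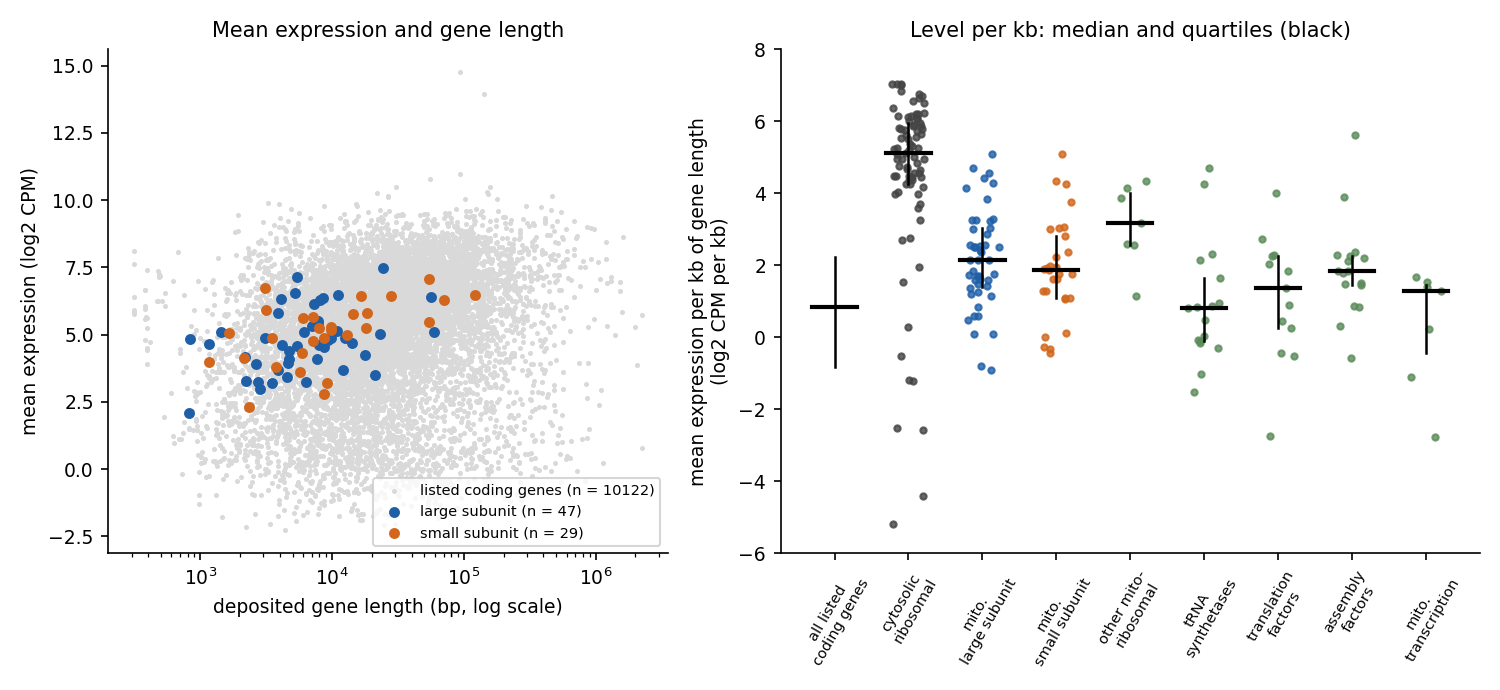
Left, the authors' mean expression (log2 CPM) against deposited gene length in bp on a log axis, with large subunit genes in blue, small subunit genes in orange and listed coding genes in grey. Right, the level per kb of gene length (log2 CPM per kb) for each gene list, 1 point per gene except for all listed coding genes, with medians and quartiles in black. The mitochondrial ribosomal genes had medians of 2.15 and 1.87, beside 0.82 over all 11364 genes and 5.10 over 89 cytosolic ribosomal genes. Of the latter groups only coding genes with a position, 10122 and 81, are drawn, so their black lines can differ from these medians.

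Both subunits covered much the same range. The median mean expression was 4.81 for the 47 large subunit genes and 5.23 for the 29 small subunit genes, a difference (large minus small) of -0.41 in log2 CPM. Per kb of gene length the order turned, with medians of 2.15 and 1.87 (log2 CPM per kb), and per kb of exon length they were 3.96 and 4.06. Structures of the assembled ribosome place the products of Mrps18a and Mrps30 in the large subunit, and Mrps36 is now assigned to the 2-oxoglutarate dehydrogenase complex. With these 3 genes moved or removed accordingly, the difference was -0.38. The 45 genes whose proteins have a bacterial counterpart had a median of 1.87 per kb of gene length, and the 27 whose proteins are particular to mitochondria had 2.15. Their quartiles overlapped, from 1.30 to 3.07 and from 1.38 to 2.79, and 4 genes were left unclassified.

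As listed, the 5 highest genes by mean expression (log2 CPM) were Mrpl3 (7.48), Mrpl9 (7.13), Mrps9 (7.07), Mrps2 (6.72) and Mrpl20 (6.53). All of them encode proteins with bacterial counterparts. Mrpl3, a protein of the core of the large subunit, stood above 88.5% of all listed genes. The 5 lowest were Mrpl53 (2.10), Mrps16 (2.30), Mrps36 (2.81), Mrpl52 (2.98) and Mrpl55 (3.19), and Mrpl53 stood above 15.2% of all listed genes. Per kb of gene length the highest were Mrpl34 at 5.10, Mrps2 at 5.08 and Mrpl9 at 4.70, and the lowest were Mrpl42 at -0.91, Mrpl48 at -0.80 and Mrps28 at -0.44 (log2 CPM per kb). Mrps2 and Mrpl9 were thus near the top on either scale. Mrps28, the counterpart of bacterial S1, was the reverse case, since it was ranked 6 as listed and 74 per kb of its 121712 bp. Per kb of its exons, 783 bp in all, it was at 6.84, the highest value among the 76 on that scale. Neighbours in these orders cannot be told apart, because the spread between libraries is not given.

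The 3 genes of the Mrps18 family descend from the gene for a single bacterial protein, S18, and their products sit at different places in the ribosome. Mrps18b was listed at a mean of 5.61 log2 CPM, Mrps18a at 5.23 and Mrps18c at 3.60. Per kb of gene length, Mrps18b was at 3.03, while Mrps18a and Mrps18c were at 1.07 and 1.08 (log2 CPM per kb). The nearest KLF1 site lay 55 bp from an annotated start of Mrps18b, 47559 bp from Mrps18a and 299932.5 bp from Mrps18c.

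Other genes of mitochondrial translation gave the following levels, all per kb of gene length (log2 CPM per kb). For 7 mitoribosomal genes with other symbols the median was 3.17, and all 7 lay above the median of all genes. Highest of these was Gadd45gip1 at 4.35, a large subunit protein, and lowest was Ict1 at 1.16, a peptidyl-tRNA hydrolase built into the large subunit. Dap3, a GTP-binding protein of the small subunit, was at 2.58, and Mrp63 was at 2.56. For 17 assembly factors the median was 1.83 and 15 lay above the overall median, led by the RNA helicase gene Ddx28 at 5.63, with the rRNA methyltransferase gene Nsun4 lowest at -0.57. For 13 translation factors the median was 1.36 and 8 lay above, from Mtrf1 at -2.74, a release factor family member, to Tufm at 4.01, the mitochondrial elongation factor Tu. For 17 mitochondrial tRNA synthetases the median was 0.82 and 8 lay above, from Fars2 at -1.52 to Mars2 at 4.69. For 7 genes of mitochondrial transcription the median was 1.28 and 4 lay above, from Tfb1m at -2.78 to Tefm at 1.67. The ribosomal proteins therefore stood above the synthetases on this scale, and the synthetase genes are longer, with a median of 28243 bp. Per kb of exon length, on which 6 of the 7 transcription genes and 15 of the 17 assembly factors have a value, the medians were 4.43 for the mitoribosomal genes with other symbols, 3.62 for synthetases, 3.58 for translation factors, 3.32 for assembly factors and 2.26 for transcription.

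Few of the mitochondrial ribosomal protein genes had a KLF1 site near the start. By the closest TSS that the site table names, 5 of 76 genes (6.58%) had a site within 10 kb, beside 21.3% of all 11364 genes. By any annotated start, whichever gene was closest, 5 of 76 (6.58%) had a site midpoint within 1 kb, beside 19.6% of 10122 listed coding genes with a position in the annotation. Within 10 kb there were 10 of 76 (13.2%) beside 29.7%, and within 50 kb there were 33 of 76 (43.4%) beside 51.3%. The median distance from a start to the nearest site was 64870 bp for the 76 genes and 46476 bp for all coding genes. Of the 47 large subunit genes 8 had a site within 10 kb of a start, and of the 29 small subunit genes 2 had one, Mrps18b and Mrps28. Among 81 genes with Rpl or Rps symbols and a position, 21 (25.9%) had one, among them the kinase genes Rps6ka1 and Rps6ka5. These shares have no test, and genes that share a neighbourhood share sites.

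**Figure D2:**
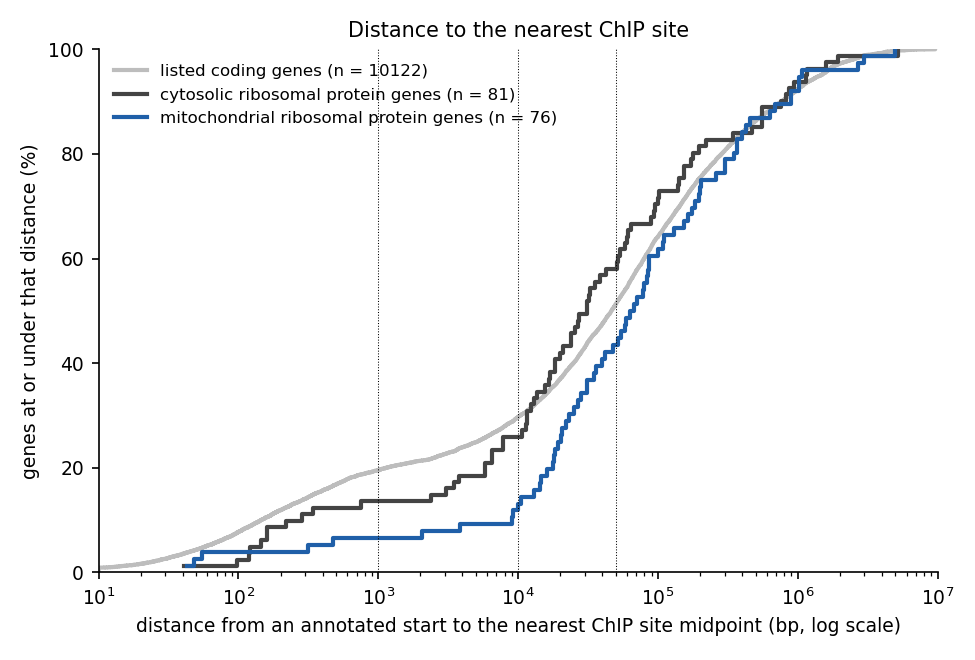
Share of genes (%) whose annotated start lies at or under a given distance (bp, log axis) from the nearest KLF1 site midpoint, with dotted lines at 1, 10 and 50 kb. The blue line of the 76 mitochondrial ribosomal protein genes reaches 13.2% at 10 kb, where listed coding genes (grey) reach 29.7%. Genes with Rpl or Rps symbols, labelled cytosolic ribosomal (black), reach 25.9% and include some kinase genes.

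At most of the sites near these genes, as at most sites in the table, one form of KLF1 was at least 4-fold above the other. This held for 5 of the 6 sites with a mitochondrial ribosomal gene as closest TSS (83.3%) and for 78.6% of all 5551. The concentration of a site is the authors' log2 mean of normalized ChIP reads, and the lowest value in the table was -0.09 for KLF1-ER (held by 1424 sites) and -0.38 for KLF1-E339K-ER (147 sites). Of the 6 sites, 3 were at least 4-fold higher for KLF1-E339K-ER, beside 55.3% of all sites. For KLF1-ER, 2 were at least 4-fold higher, beside 23.3% of all sites, and 1 was within 4-fold. The median difference (mutant minus wild type) over the 6 sites was 2.27 log2 units, beside 2.60 over all 5551 sites. With both values above the lowest it was -1.78 over 4 sites and 1.01 over 3981 of all sites; this filter leaves out of the 6 only sites that were higher for KLF1-E339K-ER, and so had to lower the median.

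**Figure D3:**
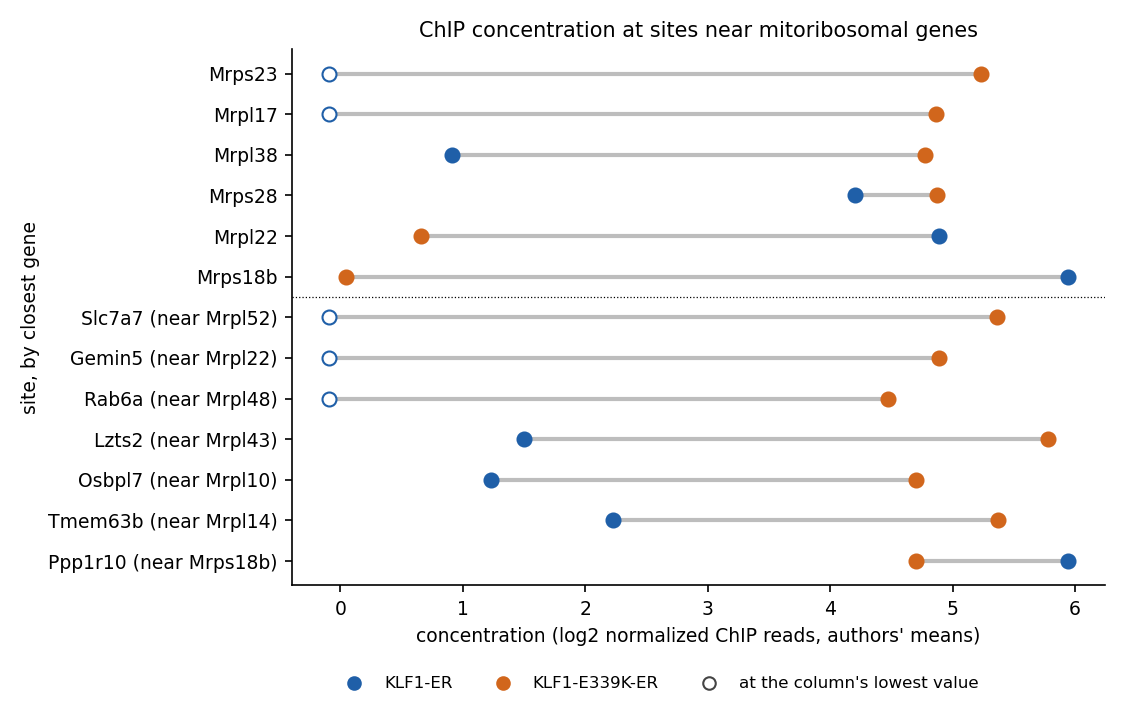
Authors' mean ChIP concentration (log2 normalized reads) for KLF1-ER in blue and KLF1-E339K-ER in orange at each site, with open symbols at the lowest value of a column. Above the dotted line are the 6 sites with a mitochondrial ribosomal gene as closest TSS, and below it 7 further sites within 10 kb of such a start; 5 open blue symbols mark sites where KLF1-ER was at -0.09.

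The Mrps18b site was the clearest case of occupancy by wild type KLF1. Mrps18b encodes the small subunit protein mS40, and its start lies head to head with that of Ppp1r10, which encodes a regulatory subunit of protein phosphatase 1, with 176 bases between them. At the Mrps18b site (chr17:36053238-36053540) the concentration was 5.94 for KLF1-ER and 0.05 for KLF1-E339K-ER, a difference of 5.89 log2 units. Its midpoint lay 55 bp upstream of the Mrps18b start, in an exon of an annotated transcript of Ppp1r10. After a gap of 18 bp came the Ppp1r10 site (chr17:36053559-36054101), with 5.94 for KLF1-ER and 4.70 for KLF1-E339K-ER, a difference of 1.24. Equal in KLF1-ER, the neighbouring sites thus differed in KLF1-E339K-ER by well over 4-fold (0.05 and 4.70 log2 units). The concentrations are per site and not per base, and the sites are 303 and 543 bp wide. The stretch printed above holds 1 pyrimidine match, GGGGCGGGG, centred 112 bp upstream of the Mrps18b start and 57 bp from the site's midpoint, and neither motif was found in the Ppp1r10 site. It also holds the ETS letters, centred 5 bp upstream of the Mrps18b start, and the NRF1 letters, centred 19 bp upstream.

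**Figure D4:**
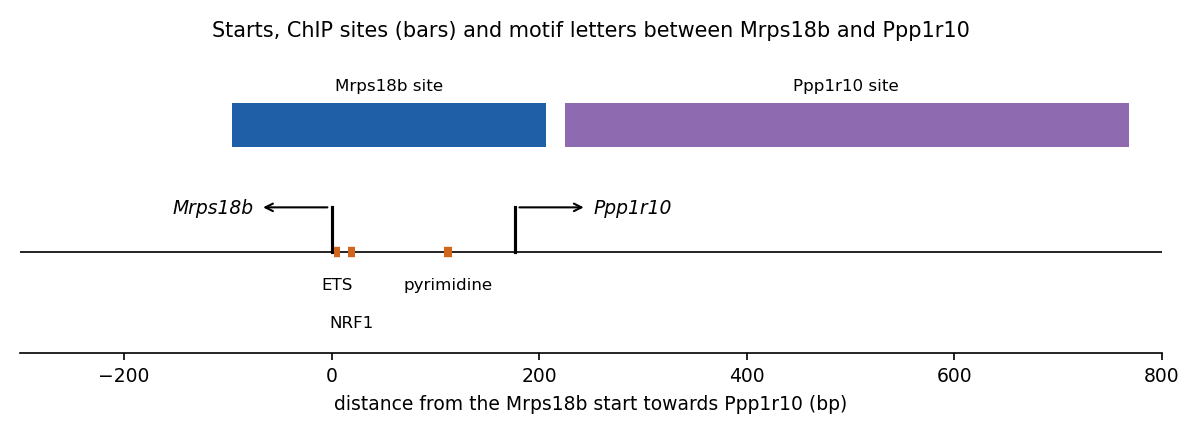
Map of the shared promoter of Mrps18b and Ppp1r10, with the distance in bp from the Mrps18b start on the x axis, arrows for the direction of transcription, bars for the ChIP sites and orange marks for motif letters. The Mrps18b site covers both starts, 177 bp apart, and all 3 motif marks, and the Ppp1r10 site begins 18 bp beyond it.

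The other site favoured by KLF1-ER lay in an intron of Mrpl22 (chr11:57987069-57987396), 2041.5 bp downstream of an annotated start. Mrpl22 encodes a protein that lines the exit tunnel of the large subunit. The concentration was 4.89 for KLF1-ER and 0.66 for KLF1-E339K-ER, a difference of 4.23 log2 units. Its sequence has 4 copies of TGGGCGTGG centred within 20.5 bp of the midpoint, in adjoining pairs, and no purine match. Over all sites, 80 (1.44%) had 4 or more pyrimidine matches within 50 bp of the midpoint, and of those 72 (90.0%) were at least 4-fold higher for KLF1-ER. On the other side of the Mrpl22 start, 3470.5 bp upstream in an intron of Gemin5, a site (chr11:57981443-57981942) had the opposite balance, with -0.09 for KLF1-ER and 4.89 for KLF1-E339K-ER. It held 1 pyrimidine match, 98.5 bp from its midpoint, and no purine match.

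At 3 of the 6 sites KLF1-E339K-ER was at least 4-fold higher. Mrpl17, whose product is a large subunit protein with a bacterial counterpart, had a site over a UTR exon of its own (chr7:112959412-112959718), 48 bp downstream of the start, with 4.86 for KLF1-E339K-ER and the lowest value of -0.09 for KLF1-ER. Neither motif occurred in that site. The Mrpl38 site (chr11:116003854-116004181) lay 3835.5 bp upstream of the start in a UTR exon of Fbf1, with 0.91 for KLF1-ER and 4.77 for KLF1-E339K-ER. Its 1 match was of the pyrimidine form, GGGGTGGGG, 11.5 bp from the midpoint, so that the higher occupancy of KLF1-E339K-ER went with the letters of the CACCC form. Mrpl38 encodes a protein of the central protuberance of the large subunit. Farther off, an intergenic site (chr11:88048639-88049123) had the small subunit gene Mrps23 as the closest TSS at 30961 bp, with -0.09 for KLF1-ER and 5.23 for KLF1-E339K-ER, and it held neither motif. Over all sites, 1007 (18.1%) held neither motif, and 611 of those (60.7%) were at least 4-fold higher for KLF1-E339K-ER, close to the 55.3% over all sites.

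Of the 6 sites, that of Mrps28 was the only one at which both proteins were within 4-fold. It lay in the first part of the gene (chr3:8923278-8923617), 470.5 bp downstream of the start in an intron, with 4.20 for KLF1-ER and 4.87 for KLF1-E339K-ER, a difference of 0.67 log2 units. It was also the only one of the 6 with both motifs, a purine match AGGGAGGGG centred 0.5 bp from the midpoint and a pyrimidine match GGGGTGGGG at 24.5 bp, both on the minus strand. A further purine match, GGGGAGGGG, lay 89.5 bp from the midpoint. Both motifs within 50 bp of the midpoint were found at 720 of all sites (13.0%), of which 177 (24.6%) were within 4-fold, beside 21.4% of all sites, and 412 (57.2%) were at least 4-fold higher for KLF1-E339K-ER.

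A further 5 sites lay within 10 kb of a mitochondrial ribosomal gene and had another gene as closest TSS, beside those of Ppp1r10 and Gemin5. All 5 were at least 4-fold higher for KLF1-E339K-ER, with concentrations of 4.47 to 5.78, against -0.09 to 2.23 for KLF1-ER. Of the 12 sites within 10 kb of a start of any of the 76 genes, 8 (66.7%) were at least 4-fold higher for KLF1-E339K-ER, 2 (16.7%) for KLF1-ER and 2 (16.7%) were within 4-fold. Of all 3750 sites within 10 kb of their closest TSS the shares were 53.9%, 22.8% and 23.3%. The Tmem63b site (chr17:45822752-45823159) was 315.5 bp upstream of Mrpl14, which encodes a conserved protein of the large subunit face that meets the small subunit. It had 2.23 for KLF1-ER and 5.37 for KLF1-E339K-ER, and held 4 purine and 3 pyrimidine matches, of which the one nearest the midpoint, at 4.5 bp, was the purine AGGGAGGGG. The site at Rab6a (chr7:107755953-107756266) was 42.5 bp from a start of Mrpl48, with -0.09 and 4.47 in the same order and neither motif. That start is an alternative one, and Mrpl48 enters the counts within 1 and 10 kb only by it. The Mrpl48 start whose promoter was read, at chr7:107731644, had no site within 10 kb. The Slc7a7 site (chr14:55036557-55036859), 9038 bp upstream of Mrpl52, had -0.09 and 5.36, with a purine match GGGGAGGGG centred 1 bp from the midpoint. The sites at Osbpl7, 9178 bp from Mrpl10, and at Lzts2, 9960 bp from Mrpl43, had 1.23 and 4.70, and 1.50 and 5.78. Neither motif occurred in the Osbpl7 site. The Lzts2 site held 1 pyrimidine match, GGGGTGGGG, centred 17 bp from the midpoint, and no purine match.

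Across the 6 sites with a mitochondrial ribosomal gene as closest TSS, the purine motif was within 50 bp of the midpoint at 1 (16.7%) and the pyrimidine motif at 3 (50%), beside 35.5% and 35.3% of all sites. The 10 genes with a site within 10 kb of a start had a median level of 1.54 per kb of gene length and the other 66 had 1.94 (log2 CPM per kb), with ranges of -0.80 to 4.57 and -0.91 to 5.10. The ranges overlapped almost wholly.

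Of the 61 other genes of mitochondrial translation and transcription, 6 (9.84%) had a site within 10 kb by closest TSS, beside the 21.3% of all genes. The lists differed in this, since the 6 comprise 3 of the 7 mitoribosomal genes with other symbols (42.9%), 2 of 13 translation factors (15.4%) and 1 of 17 assembly factors (5.88%). By annotated start within 10 kb of a site, beside 29.7% of all coding genes, it was 5 of the 7 mitoribosomal genes with other symbols (71.4%), 3 of 15 assembly factors (20%), 2 of 13 translation factors (15.4%), 2 of 17 tRNA synthetases (11.8%) and 0 of 6 transcription genes. Tufm had a pair, one with 7.21 for KLF1-ER and the lowest value of -0.38 for KLF1-E339K-ER at 4757.5 bp, and one with 1.23 and 5.45 in the same order at 5486 bp. Mrm1, an rRNA methyltransferase gene, also had a pair, with 5.93 and 0.66 at 753 bp and 7.27 and 6.84 at 4180 bp. Dap3 had 3.67 for KLF1-ER and 6.17 for KLF1-E339K-ER at 3.5 bp, with 2 pyrimidine matches. Mrp63, which encodes a large subunit protein, had 5.40 and -0.38 at 8924 bp. Taco1, which encodes an activator of the translation of a cytochrome oxidase subunit, had 0.50 and 4.98 at 665.5 bp, and Gadd45gip1 had -0.09 and 4.49 at 2527 bp. None of the 17 tRNA synthetase genes and none of the 7 transcription genes was the closest TSS of a site within 10 kb.

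In the promoters of the mitochondrial ribosomal protein genes, read from 250 bases before to 50 after the start, letters of both KLF1 motifs and of other factors were counted. The purine motif was in 15 of 76 (19.7%) beside 25.8% of 10122 coding genes, and the pyrimidine motif in 30 of 76 (39.5%) beside 46.1%. For the other factors the shares stood the other way. CCGGAAG (ETS) was in 27 of 76 (35.5%) beside 18.9%, GCATGCGC (NRF1, a regulator of nuclear genes for mitochondria) in 8 of 76 (10.5%) beside 5.54%, and AAGATGG (YY1) in 14 of 76 (18.4%) beside 7.84%. At least 1 of these 3 was in 38 of 76 (50%) beside 29%, and at least 2 were in 10 of 76 (13.2%) beside 3.15%. Mrps18b was the only gene of the 76 with all 3, where 13 of 10122 (0.128%) had them. Of 31 ETS matches, 29 were centred from 100 bases before to 50 after the start, with a median of 9 bases upstream. The median GC content of the promoters was 57.7% beside 60.3%, and the ratio of observed to expected CpG was 0.820 beside 0.768. These 3 motifs were chosen with the promoters of this gene group in mind, these shares have no test, and a match is no evidence of binding.

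Of the 8 genes with the NRF1 letters, 5 (62.5%) had a KLF1 site within 10 kb of a start, namely Mrpl10, Mrpl17, Mrpl22, Mrps18b and Mrps28, and of the 68 without them 5 (7.35%) had one. Over all coding genes the shares were 23.5% with the letters and 30.1% without, so that the order was the other way round. The same split was made for the other motifs. With the ETS letters 7 of 27 genes (25.9%) had a site within 10 kb, and without them 3 of 49 (6.12%) had one. All coding genes had 24.2% and 31.0%, again in the other order. YY1 gave 14.3% with and 12.9% without, the pyrimidine motif 16.7% and 10.9%, and the purine motif 13.3% and 13.1%. The split by NRF1, the widest of these, was made after seeing the data, has no test and rests on 8 genes. The other splits have no test either.

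**Figure D5:**
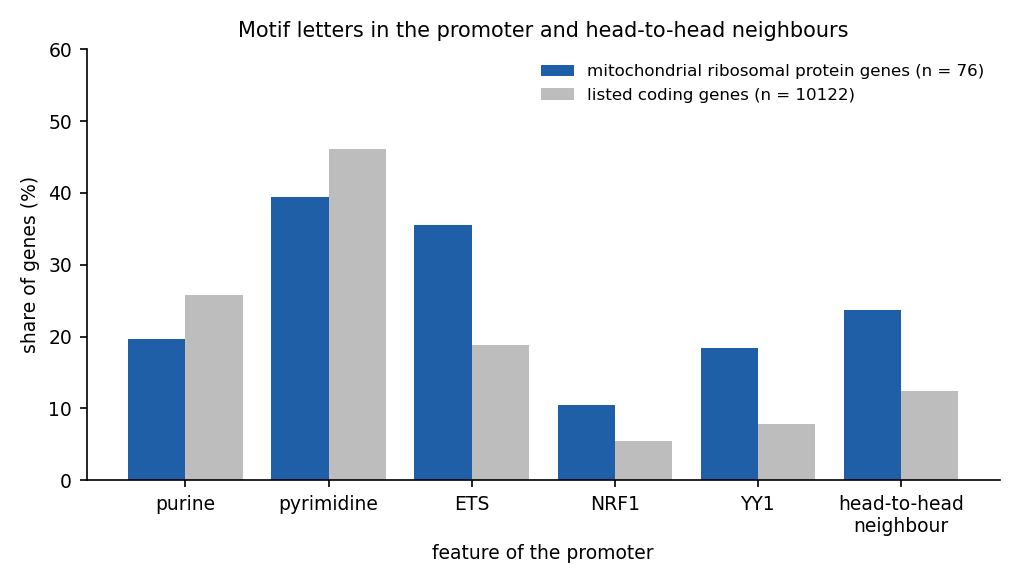
Share of genes (%) with each motif's letters from 250 bases before to 50 after the start, or with a head-to-head neighbour within 1 kb, for the 76 mitochondrial ribosomal protein genes (blue) and 10122 listed coding genes (grey). The blue bars are lower for the purine (19.7% beside 25.8%) and pyrimidine motifs, and higher for ETS (35.5% beside 18.9%), NRF1, YY1 and head-to-head neighbours (23.7% beside 12.4%).

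Several of these genes share a promoter region with a neighbour. A coding gene started within 1 kb upstream on the opposite strand, head to head, for 18 of 76 genes (23.7%). This was so for 12.4% of all listed coding genes and 12.3% of those with Rpl or Rps symbols. Within 300 bp it was 16 of 76 (21.1%) beside 9.37%. Mrpl46 and Mrps11, whose starts are 53 bp apart on chromosome 7, were the only pair of neighbours within 50 kb among the 76, which otherwise lay scattered over 17 chromosomes. As listed, Mrpl46 was at a mean of 5.49 and Mrps11 at 5.28 log2 CPM. Mrps12, for the counterpart of the decoding protein S12, starts 171 bp from Sars2, the mitochondrial seryl-tRNA synthetase gene, and Mrpl49 starts 135 bp from Fau, which encodes a cytosolic ribosomal protein. Per kb of gene length, Mrps12 was at 3.02 and Sars2 at 0.82, and Mrpl49 at 2.57 and Fau at 3.61 (log2 CPM per kb). Of the 18 genes only Mrps18b had a site within 1 kb, and Mrpl10 had one at 9178 bp.

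Exons of 26 of the 76 genes overlap exons of another annotated gene, and whether reads were counted by strand is not stated in the sources used here. The levels of those 26, which include Mrps18b, Mrpl14, Mrpl43, Mrpl46, Mrpl48, Mrpl53, Mrps6 and Mrps11, may therefore hold reads of the neighbour.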

How the data were processed

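Ion Proton reads were mapped by the authors to mm9, with Tophat2 (2.0.10 in the submitters' processing notes) and TMAP for 4sU-RNA and TMAP for ChIP. Mean expression is deposited as log2 CPM by limma-voom, averaged by the authors over all libraries of the fit, and the same value stood in both gene tables. Concentrations are deposited as DiffBind's log2 mean normalized read counts. The deposited tables also hold the authors' fold changes, t, p-values and FDR, which were not used. Counting tool and annotation are not given in the sources used here.

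Levels per kb are log2 CPM minus log2 of length in kb. Positions, exons and promoters came from GENCODE M1 on NCBIM37 (mm9), and 89.5% of 5148 closest-TSS distances were rebuilt within 50 bp. Motif search was tested on simulated sequences. No test was run. The members and lists were chosen with earlier results of these data known, and ETS, NRF1 and YY1 letters were added after seeing the data. Named genes are those with a site, the extremes of level, the Mrps18 family, partners of shared promoters, and in other lists genes with a site and the extremes. Of 11364 genes, 10563 had a position. Alternatives covered length, distance, fold, motif windows and neighbour limits.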

Additional observations from a re-analysis of the deposited data

How the results depend on the processing

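Against 27 genes above the median of all genes as listed, there were 64 per kb of gene length and 50 per kb of exon length. The difference between subunit medians (large minus small) turned from -0.41 to 0.27 per kb of gene length and was -0.10 per kb of exon length. Genes with a site by closest TSS numbered 5 within 10 kb and 3 within 1 kb, and 10 by any annotated start. With a higher concentration of at least 5, sites at least 4-fold higher numbered 1 for the mutant and 1 for the wild type. The median difference over the 6 sites (mutant minus wild type) was 2.27, but 0.67 within 1 kb. It was -1.78 over the 4 sites with both concentrations above the lowest, a filter that leaves out of the 6 only sites higher for the mutant and so fixes the direction of the move. Over all sites, where it also leaves out those with the mutant at its lowest value, the median was 1.01 against 2.60. Promoters with the purine motif numbered 31 with 1000 bases before the start and 8 with 100. For YY1, added after seeing the data, 14 became 22 with 1000 bases. Other settings left every count within 1.5 times its value and the remaining subunit differences within 0.05. The cause of these changes was not tested, beyond the shorter or longer window or list that each setting makes. No paired analysis was possible because the columns carry no values per library. No library could be left out for the same reason, and the depth is unknown.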
